A study of Mus musculus with 18 samples.

Results

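The interferon-stimulated genes described here are 40 genes that cells switch on in response to interferon, measured by RNA-seq in an immortalized line of mouse brown preadipocytes, undifferentiated precursors of brown fat cells. They were chosen by name, with earlier results of these data known, so the shares of all genes given beside them below are descriptions. The genes are the rows of the count table whose Ensembl identifier carries one of 40 gene symbols in GENCODE on the mouse genome GRCm38. Each symbol matched 1 of the 48023 genes of the table. FGF6 is a paracrine fibroblast growth factor. Cells received vehicle (Veh) or FGF6 and were collected after 4, 8, or 24 h, with 3 libraries for each of the 6 groups. All 18 libraries come from this single line, which was made from stromal vascular cells of mouse brown fat by immortalization with SV40 T antigen, and the labels name no interferon treatment in any group. Replicates are numbered in the labels with no statement that they came from separate cultures, so the p-values below measure the spread between these libraries, which may be technical. Library totals lay between 24327816 and 33471980 counts. On GRCm38, 6 of the genes that recur below are Isg15 (ENSMUSG00000035692) at chr4:156199424-156200818 (minus strand), Irf7 (ENSMUSG00000025498) at chr7:141262706-141266481 (minus strand), Mx1 (ENSMUSG00000000386) at chr16:97447035-97462907 (minus strand), Ifit1 (ENSMUSG00000034459) at chr19:34640871-34650009 (plus strand), Bst2 (ENSMUSG00000046718) at chr8:71534255-71537456 (minus strand), and B2m (ENSMUSG00000060802) at chr2:122147686-122153083 (plus strand). All 40 genes had enough counts to be tested, among 15071 genes tested in all.

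Interferons are secreted proteins that warn neighboring cells of infection. Type I interferons bind the receptor chains IFNAR1 and IFNAR2, the kinases JAK1 and TYK2 then become active, and STAT2 and IRF9 form part of a complex that binds the interferon-stimulated response element (ISRE) in the promoters of its target genes. Interferon-gamma acts on a different element, the gamma-activated site (GAS). Many cell types keep a low, tonic activity of this pathway without infection.

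The promoters of several of these genes carry the letters by which the family is best known, and they are shown here because the genes move together in the data that follow. RefSeq promoter sequences (build GRCm38.p6, 250 bases before to 50 bases after the start of the gene) were found for 32 of the 40 genes. No entry was found for Usp18, Mx1, Mx2, Oas2, Dhx58, Rtp4, Parp9, and Parp14. An ISRE-like motif, GAAANNGAAA or its reverse complement TTTCNNTTTC on the strand of the gene, occurred in 18 of the 32 (56.2%) and in 3.99% of all 27025 genes of the promoter table. A GAS-like motif, TTCNNNGAA, occurred in 10 of the 32 (31.2%) and in 9.55% of all genes, and in 2 of the 32 it overlapped an ISRE-like match. The following stretches lie upstream of the start of the gene and are written 5′ to 3′ on its strand, with the ISRE-like matches in capitals.
Ifit1: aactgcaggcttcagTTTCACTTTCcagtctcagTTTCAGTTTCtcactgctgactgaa
Ifit3: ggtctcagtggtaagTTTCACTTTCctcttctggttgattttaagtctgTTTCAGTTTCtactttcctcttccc
Ifit3b: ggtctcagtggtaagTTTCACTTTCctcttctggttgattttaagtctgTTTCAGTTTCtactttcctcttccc
Isg15: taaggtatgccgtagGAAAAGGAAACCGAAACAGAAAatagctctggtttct
Oas1a: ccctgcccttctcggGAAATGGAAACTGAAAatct
Stat2: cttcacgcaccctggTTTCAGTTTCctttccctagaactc
Bst2: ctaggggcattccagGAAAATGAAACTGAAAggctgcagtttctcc
Gbp7: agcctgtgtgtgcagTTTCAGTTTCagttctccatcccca
Igtp: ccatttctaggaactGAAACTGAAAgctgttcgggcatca
B2m: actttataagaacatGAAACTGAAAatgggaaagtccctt
Their positions are chr19:34640770-34640828 for Ifit1, chr19:34583358-34583431 for Ifit3, chr19:34607754-34607827 for Ifit3b, chr10:128270261-128270300 for Stat2, chr3:142530268-142530307 for Gbp7, chr11:58199507-58199546 for Igtp, and chr2:122147533-122147572 for B2m, all on the plus strand, and chr4:156200860-156200911 for Isg15, chr5:120907526-120907560 for Oas1a, and chr8:71537572-71537617 for Bst2 on the minus strand. Ifit1, Ifit3, and Ifit3b each held 2 separate matches, and the stretches of Ifit3 and Ifit3b were the same letter for letter. In Isg15, 3 matches overlapped in a row, and in Oas1a and Bst2 2 matches overlapped. Among these 32 genes, those with the ISRE-like motif did not fall further, which was not tested. The median log2 fold change at 24 h, described below, was -4.16 over the 18 genes with a match and -4.56 over the 14 without. The members without an entry are left out, and the comparison does not reach genes outside the list. Outside the 40, a fall of at least 4 at 24 h was found in 9.69% of tested genes with the motif and 1.65% without.

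The 40 genes were expressed at high levels in vehicle-treated cells. Levels between genes are compared as CPM (counts per 1000000 counts of the normalized library) per kilobase of exon. At 4 h in vehicle, the median of the 40 was 38.95 CPM per kilobase against 5.19 for all genes with a known length, and 38 of the 40 stood above the median gene. B2m, the light chain of MHC class I, had the highest level (1717 ± 187 CPM per kilobase, SD, n = 3), followed by the viral entry inhibitor Ifitm3 (1128 ± 129), the membrane tether Bst2 (608 ± 114), the ubiquitin-like modifier Isg15 (379 ± 98.0), and Ifitm2 (322 ± 17.5). In this order, Isg15 and Ifitm2 did not differ beyond their spread, while B2m, Ifitm3, and Bst2 stood apart by more than their SDs. At the low end were Ifitm1 (4.54 ± 0.356) and the GTPase Mx1 (1.70 ± 0.539), the only members below the median gene. After 24 h with FGF6 the median of the 40 was 2.91 CPM per kilobase against 4.82 for all genes, and 15 of the 40 stood above the median gene.

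**Figure D1:**
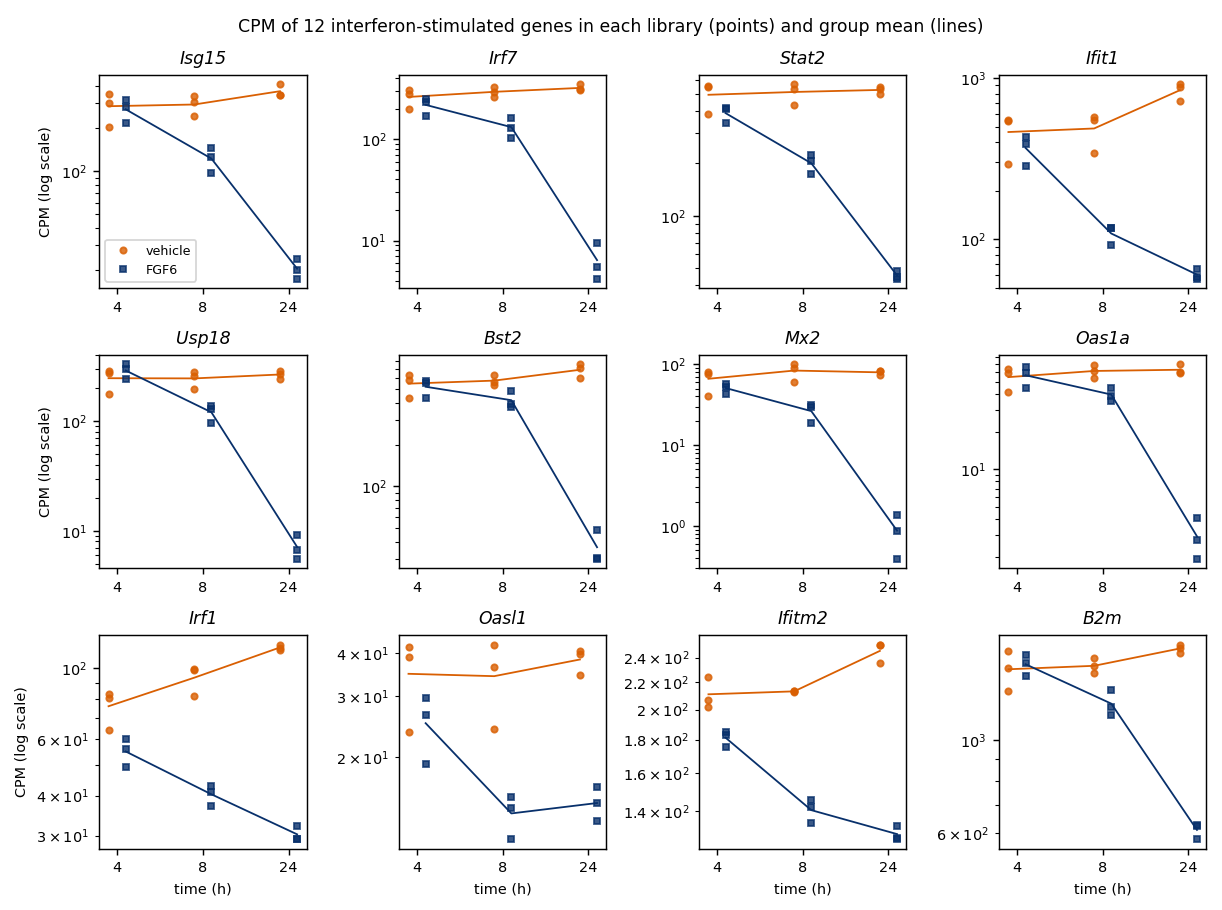
CPM (log axis, a separate range for each gene) of 12 interferon-stimulated genes at 4, 8, and 24 h in vehicle (circles) and FGF6 (squares), with 1 point per library and a line through the means of 3 libraries. In all 12 genes the FGF6 libraries lie below the vehicle libraries at 8 and 24 h, with Bst2 and Oas1a falling mostly after 8 h and Oasl1 staying near its 8 h level.

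After 4 h of FGF6, 10 of the 40 genes were lower and none was higher at a false discovery rate (FDR) under 0.05, where 34.2% of all 15071 genes were lower and 28.6% higher. Tests here and below are quasi-likelihood tests of edgeR, adjusted by Benjamini-Hochberg over all genes tested. The 10 were the transcription factors Irf1, Irf9, and Stat2, the RNA sensors Ddx58 (RIG-I) and Dhx58 (LGP2), the membrane proteins Ifitm1 and Ifitm2, the synthetase-like Oasl1, the GTPase Gbp7, and the immunoproteasome subunit Psmb9. The median log2 fold change was -0.12 over the 40 and -0.05 over all genes. No member was higher at an unadjusted p under 0.05 or with DESeq2 or limma-voom. When genes with low counts were kept in the fit, 4 members were higher and 20 lower, and the share of all genes called in that fit is not given. In 3 of the 40 all FGF6 libraries lay below all vehicle libraries, against 36.1% of all genes. At the FDR of 0.25 used in the study's methods, 17 of the 40 were lower and 1 higher, against 41.8% of all genes lower. In the main fit, the share of members called at 4 h was thus near or below that of the whole table.

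The 3 genes without overlap at 4 h were Irf1, Ifitm2, and Ifitm1. Irf1, a transcription factor that interferon-gamma induces directly, had 64.2, 80.9, and 83.1 CPM in vehicle and 55.9, 59.9, and 49.0 CPM after FGF6, which is a log2 change of -0.47 ± 0.08 (SE), adjusted p = 2.61e-05. Ifitm2 had 202, 207, and 224 CPM in vehicle and 185, 183, and 176 CPM with FGF6 (log2 fold change -0.22, SE 0.04, adjusted p = 2.55e-05). Ifitm1 had 4.67, 4.82, and 5.41 CPM in vehicle and 3.62, 3.35, and 3.94 CPM with FGF6 (log2 fold change -0.45, SE 0.15, adjusted p = 0.0121). These are the genes in which even the lowest vehicle library stood above the highest FGF6 library. Isg15 differed by a log2 fold change of -0.07 ± 0.15 (SE), adjusted p = 0.715, Irf7 by -0.26 ± 0.16 (SE), adjusted p = 0.158, and B2m by 0.04 ± 0.06 (SE), adjusted p = 0.564, none of them past the threshold. Irf9 and Stat2, which bind DNA together, fell by 0.21 (adjusted p = 0.0143) and 0.35 (adjusted p = 0.00623) on the log2 scale, with vehicle replicate 1 inside the range of the FGF6 libraries in each.

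The libraries of a group did not carry these genes at one level, and this bears on the 4 h result. In vehicle at 4 h, replicate 1 was the lowest of the 3 libraries in all 40 genes, and replicate 3 the highest in 36. The median deviation of the 40 genes from their group mean was -0.39 in replicate 1, 0.14 in replicate 2, and 0.25 in replicate 3 on the log2 scale of CPM plus 0.1, while the median over all genes tested was between -0.01 and 0.01 in each. With FGF6 at 4 h, replicate 3 was the lowest in 39 genes and replicate 2 the highest in 38. The same joint spread was present at 8 h, where replicate 1 of vehicle was lowest in 38 genes and replicate 2 of FGF6 lowest in 39. At 24 h replicate 1 of vehicle was lowest in 31 genes and replicate 2 of FGF6 in 24. The median SD of a member across the 3 libraries was 0.35 in vehicle at 4 h, 0.25 with FGF6 at 4 h, 0.24 and 0.22 at 8 h, and 0.12 and 0.20 at 24 h in vehicle and FGF6, against 0.07 to 0.08 for all genes in every group. The labels give no batch to set beside this spread, so the 4 h counts are given with single libraries left out. Without vehicle replicate 1, 20 of the 40 were lower at 4 h. Without vehicle replicate 3 the number was 3, without vehicle replicate 2 it was 5, without FGF6 replicate 3 it was 4 with 1 higher, and without FGF6 replicate 1 it was 6. The median log2 fold change of the 40 lay between -0.30 and 0.02 in these fits. DESeq2 called 5. When libraries were scaled by their size and not by TMM factors (trimmed mean of M values), which moved the median of all genes by -0.10, 17 were called. Shares of all genes called in these alternative fits are not given, so the counts show only how far the member calls vary.

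**Figure D2:**
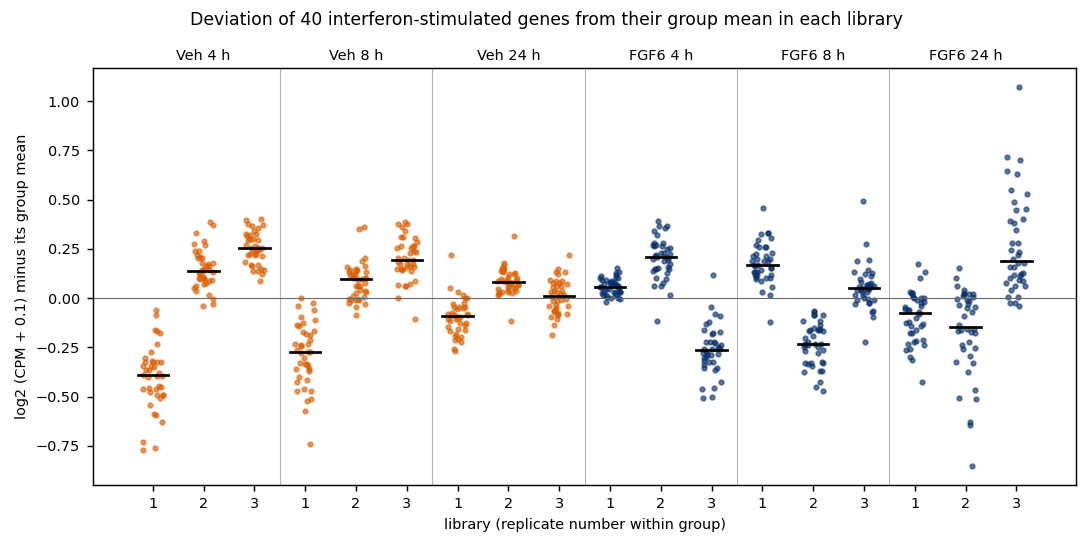
Deviation of each of the 40 genes from the mean of its group (log2 of CPM plus 0.1, vertical axis) in the 18 libraries (horizontal axis), with 1 point per gene, a bar at the median, vehicle in orange and FGF6 in blue. In vehicle replicate 1 at 4 h all 40 points lie below 0 (median -0.39), and in FGF6 replicate 3 at 24 h most lie above 0 (median 0.19).

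After 8 h of FGF6, all 40 genes were lower than in vehicle, against 38.4% of all genes lower and 32.4% higher, and in all 40 no FGF6 library reached a vehicle library, which held for 39.6% of all genes. The median log2 fold change was -1.29 over the 40 and -0.05 over all genes. Expressed as a share of the vehicle mean, the median gene was left at 41.0%, with a range from 17.9% for Gbp7 to 81.3% for B2m. By DESeq2, 39 of the 40 passed the threshold.

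The deepest falls at 8 h were in Gbp7, Mx1, Ifit1, and Gbp2. Gbp7, a large GTPase that acts against intracellular pathogens, had 92.5, 144, and 159 CPM in vehicle and 25.1, 19.9, and 25.6 CPM after FGF6, which is a log2 change of -2.49 ± 0.19 (SE), adjusted p = 8.35e-12. Mx1, a GTPase that blocks viral nucleoproteins, had 4.80, 10.4, and 10.5 CPM in vehicle and 1.50, 1.24, and 2.34 CPM with FGF6 (log2 fold change -2.36, SE 0.30, adjusted p = 1.22e-07). Ifit1, which binds viral RNA that lacks a host cap, had 342, 546, and 571 CPM in vehicle and 117, 91.7, and 117 CPM with FGF6 (log2 fold change -2.16, SE 0.19, adjusted p = 2.05e-10). In each of the 3 genes vehicle replicate 1 was well below the other two vehicle libraries and still above every FGF6 library. Gbp2 fell by 1.99 on the log2 scale (SE 0.19, adjusted p = 8.76e-10).

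Group by group at 8 h, the 5 guanylate-binding and immunity-related GTPases (Gbp2, Gbp3, Gbp7, Igtp, and Irgm1) were left at 17.9% to 39.6% of vehicle and the 4 Ifit genes at 22.3% to 40.2%. The 3 RNA sensors, Ifih1 (MDA5), Ddx58, and Dhx58, were left at 40.8% to 49.2%. The 4 membrane restriction factors ranged from 29.1% for Ifitm1 to 77.8% for Ifitm3, with Bst2 at 72.3% and Ifitm2 at 66.0%. Of the transcription factors, Stat2 was at 39.0%, Irf1 at 43.2%, Irf7 at 44.9%, and Irf9 at 71.9%. Their log2 fold changes were -1.36 (adjusted p = 3.51e-11), -1.21 (adjusted p = 2.18e-12), -1.16 (adjusted p = 5.2e-07), and -0.48 (adjusted p = 2.99e-06). Irf9 thus had the smallest change of the 4, a difference between genes that was not tested. Isg15, with 243, 305, and 336 CPM in vehicle and 145, 96.2, and 126 CPM with FGF6, changed by -1.27 ± 0.16 (SE), adjusted p = 1.1e-07. B2m was the least affected, with 1444, 1502, and 1568 CPM in vehicle and 1317, 1151, and 1200.3 CPM with FGF6 (log2 fold change -0.30, SE 0.06, adjusted p = 4.52e-05).

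After 24 h of FGF6, all 40 genes were lower, without overlap between the groups, against 37.9% of all genes lower, 35.9% higher, and 38.1% without overlap below vehicle. The median log2 fold change was -4.47 over the 40 and -0.02 over all genes. The median gene was left at 4.53% of its vehicle mean, with a range over the 40 from 1.005% to 52.64%. A fall of at least 4 on the log2 scale was seen in 24 of the 40 and in 2.25% of all genes (339 of 15071), so the members are 24 of those 339 genes. All 40 were lower at 24 h under every alternative setting and with any single library left out.

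**Figure D3:**
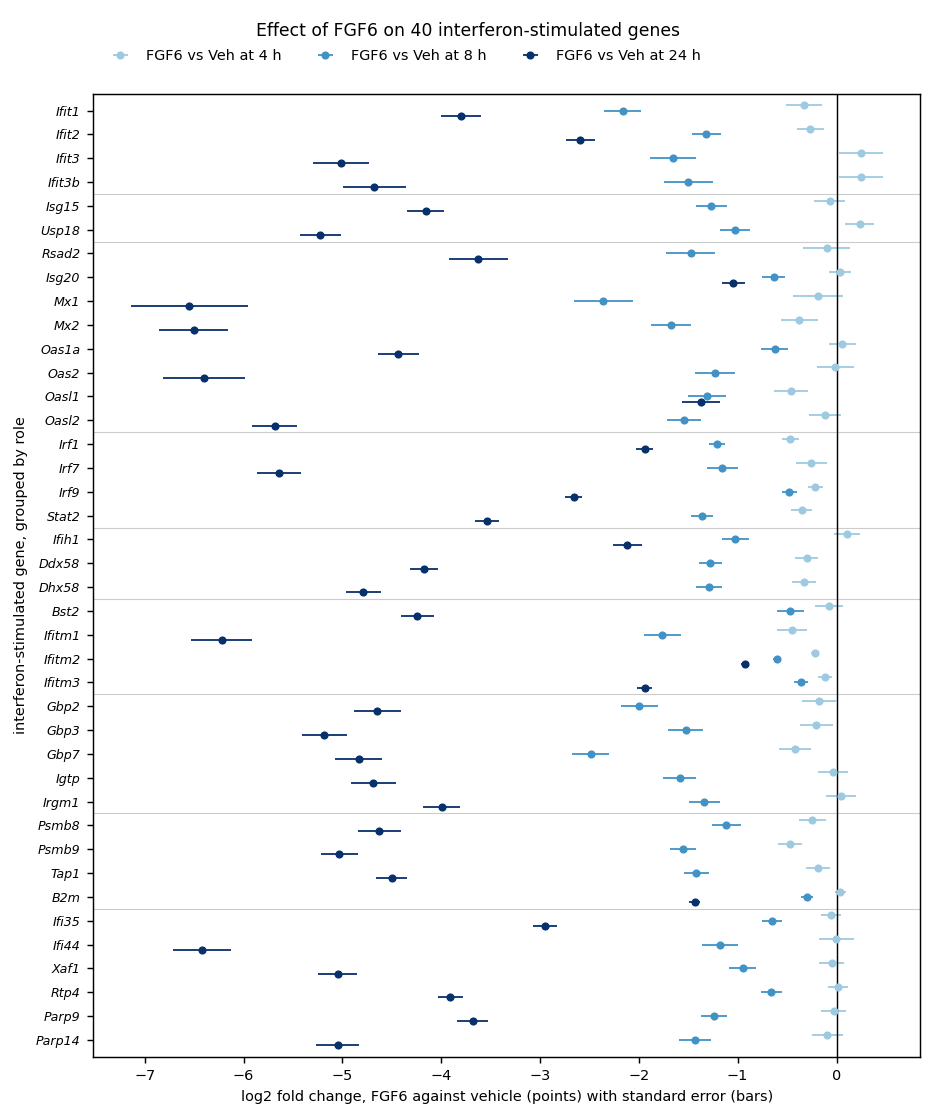
Log2 fold change of FGF6 against vehicle (horizontal axis, points) with its standard error (bars) for the 40 genes, grouped by role, at 4 h (light), 8 h (mid), and 24 h (dark blue). At 4 h the points lie between -0.47 and 0.25, at 8 h between -2.49 and -0.30, and at 24 h between -6.55 and -0.93.

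Mx1 and Ifitm1 were close to the detection limit at 24 h with FGF6. Mx1 had 145, 246, and 132 counts in the vehicle libraries and 1, 2, and 2 counts with FGF6, a ratio of the CPM of 101 (95% counting interval 43.1 to 313). Ifitm1 had 190, 174, and 126 counts in vehicle and 2 counts in each FGF6 library, a ratio of 79.0 (36.0 to 216). These intervals cover counting error only, and the fitted log2 fold changes of -6.55 ± 0.59 (SE) for Mx1 and -6.22 ± 0.31 for Ifitm1 depend on the prior count of the fit.

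Mx2, Ifi44, and Oas2 also fell by more than 6 on the log2 scale. Mx2, the neighbor of Mx1 on chromosome 16, is annotated in GENCODE as a polymorphic pseudogene. It had 73.3, 81.6, and 83.7 CPM in vehicle and 0.875, 0.393, and 1.36 CPM with FGF6 (log2 fold change -6.50, SE 0.35, adjusted p = 7.44e-15). Ifi44 had 155, 184, and 159.8 CPM in vehicle and 1.53, 1.29, and 3.01 CPM with FGF6 (log2 fold change -6.42, SE 0.30, adjusted p = 3.2e-16). Oas2, an oligoadenylate synthetase that activates RNase L, had 27.8, 32.5, and 26.1 CPM in vehicle and 0.182, 0.143, and 0.697 CPM with FGF6 (log2 fold change -6.40, SE 0.42, adjusted p = 4.4e-13). In all 3, FGF6 replicate 3 was the highest of the FGF6 libraries, and for Oas2 it held 19 counts against 5 and 4 in the other two.

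The 4 transcription factors fell to different depths at 24 h, without a test between genes. Irf7, which drives the interferon genes themselves, had 308, 347, and 303 CPM in vehicle and 5.51, 4.22, and 9.51 CPM with FGF6 (log2 fold change -5.64, SE 0.22, adjusted p = 9.9e-18). Stat2 had 501, 548, and 537 CPM in vehicle and 43.6, 44.4, and 48.4 CPM with FGF6 (log2 fold change -3.54, SE 0.12, adjusted p = 7.61e-19). Irf9 had 196, 221, and 217 CPM in vehicle and 33.3, 28.4, and 38.6 CPM with FGF6 (log2 fold change -2.66, SE 0.08, adjusted p = 1.02e-19). Irf1 had 114, 119, and 116 CPM in vehicle and 29.3, 29.3, and 32.2 CPM with FGF6 (log2 fold change -1.94, SE 0.09, adjusted p = 1.94e-16), so it kept 26.1% of its vehicle level where Irf7 kept 2.01%.

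The ISG15 system fell with the rest. Isg15 itself had 343, 409, and 344 CPM in vehicle and 17.5, 19.9, and 24.1 CPM with FGF6 (log2 fold change -4.15, SE 0.19, adjusted p = 2.21e-16). Usp18, the protease that removes ISG15 from proteins and also restrains signaling at IFNAR2, had 244, 284, and 272 CPM in vehicle and 6.71, 5.57, and 9.14 CPM after FGF6, which is a log2 change of -5.22. At 4 h Usp18 had been at 118% of its vehicle mean, a difference that was not called (adjusted p = 0.176).

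Within gene families the depth of the fall at 24 h was uneven. Of the Ifit genes, which lie together on chromosome 19, Ifit3 was left at 3.10% and Ifit3b at 3.91% of vehicle, but Ifit1 at 7.19% and Ifit2 at 16.6%. Reads of Ifit3 and Ifit3b cannot be fully told apart, since 51.2% of the 50-base words of Ifit3 also occur in another gene, chiefly Ifit3b. Of the oligoadenylate synthetases and their relatives, Oas1a (which shares 57.6% of its words with other genes, chiefly Oas1g) was left at 4.65%, Oas2 at 1.18%, and Oasl2 at 1.94%, whereas Oasl1, a relative known to hold back translation of IRF7 in mice, was left at 38.6%. Of the Ifitm genes on chromosome 7, Ifitm1 was left at 1.27%, Ifitm3 at 26.0%, and Ifitm2 at 52.6%, the highest share of the 40. Ifitm2 shares 48.5% of its words with other gene models, chiefly the overlapping Gm45717. The exonuclease Isg20 was next, at 48.5%, with 25.4, 28.6, and 24.8 CPM in vehicle and 12.9, 12.9, and 12.4 CPM with FGF6.

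The sensors, the GTPases, and most genes of antigen presentation were also reduced to a small share of vehicle at 24 h. The sensors Ddx58 and Dhx58 were left at 5.54% and 3.63% of vehicle and Ifih1 at 23.1%. The 5 GTPases were left at 2.76% to 6.28%. The immunoproteasome subunits Psmb8 and Psmb9 were left at 4.04% and 3.06%, and the peptide transporter Tap1, which overlaps Psmb9 by 212 exonic bases on the other strand, at 4.41%. Exons of Psmb8, Parp9, Ifi35, Dhx58, Irf1, Usp18, Irf7, Oasl1, and Gbp2 also overlap other gene models on the opposite strand. On the same strand, exons of Gbp7 overlap Gm43802 by 637 bases and those of Rtp4 overlap Gm45338 by 296. Igtp likewise overlaps Irgm2 by 162 bases, Irf9 overlaps Rnf31 by 123, and Parp14 overlaps Gm49730 by 110. B2m kept 37.0%, with 1655, 1691, and 1618 CPM in vehicle and 624, 582, and 628 CPM with FGF6 (log2 fold change -1.44, SE 0.06, adjusted p = 2.02e-17). Rsad2 (viperin) was left at 8.10%, Xaf1 at 3.03%, Ifi35 at 12.9%, Rtp4 at 6.67%, and the ADP-ribosyltransferases Parp9 and Parp14 at 7.79% and 3.03%.

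**Figure D4:**
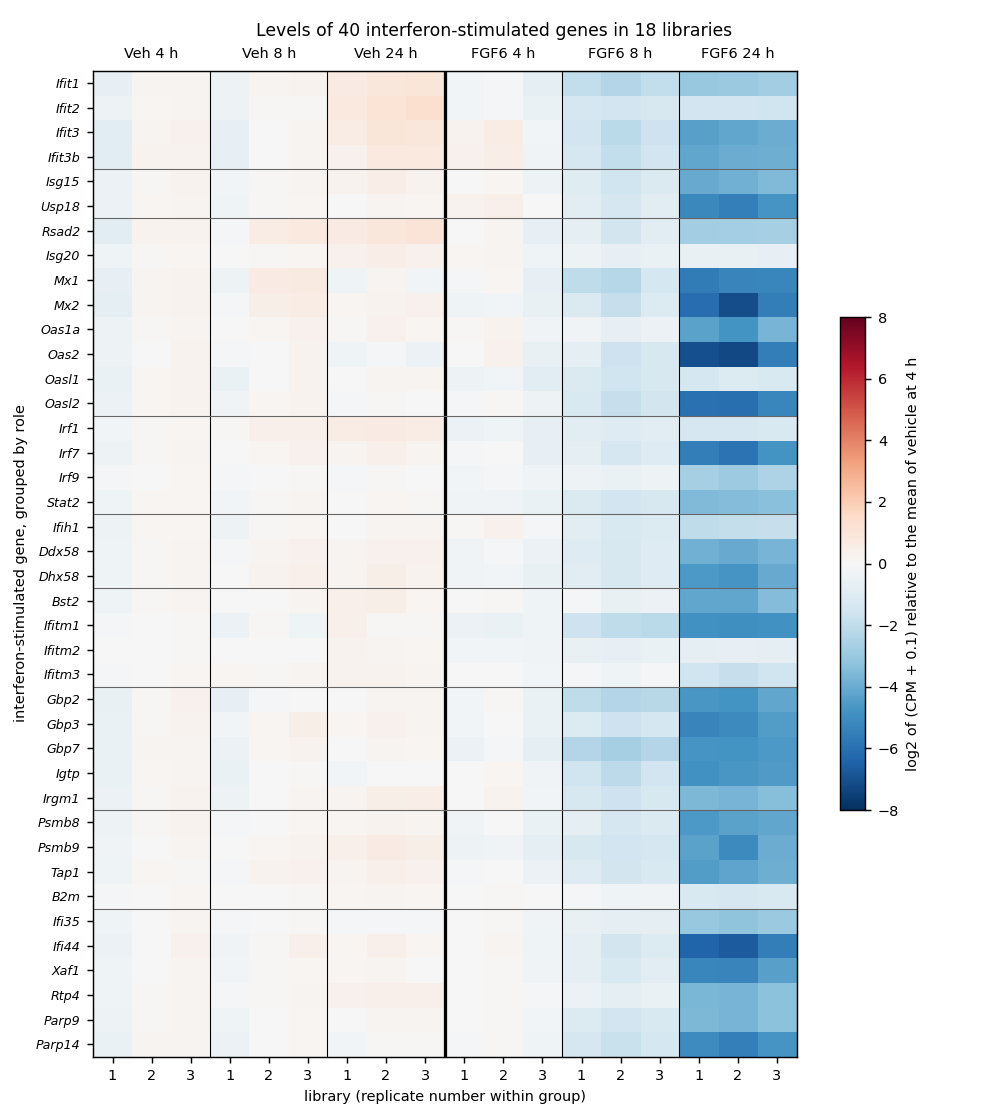
Level of the 40 genes (rows, grouped by role) in the 18 libraries (columns), as log2 of CPM plus 0.1 relative to the mean of vehicle at 4 h. The vehicle libraries are pale, the FGF6 libraries at 8 h are light blue, and those at 24 h are dark blue for most genes and light for Isg20, Oasl1, Ifitm2, and B2m.

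The effect of FGF6 changed between time points for nearly all of these genes, as tested by the difference of the log2 fold changes. From 4 to 8 h the effect became more negative in 37 of the 40, against 15.1% of all genes. From 8 to 24 h it became more negative in 39, against 22.5%. From 4 to 24 h this held for 40, against 25.2%. The exception between 8 and 24 h was Oasl1, whose effect differed by -0.06 ± 0.27 (SE), adjusted p = 0.879. Oasl1 had 15.4, 11.7, and 14.3 CPM at 8 h and 13.2, 16.4, and 14.8 CPM at 24 h with FGF6, against 34.5, 40.6, and 39.7 CPM in vehicle at 24 h. Each effect is relative to vehicle at the same time, so a rise in vehicle also makes it more negative. With FGF6 the median of the 40 was 15.9 CPM per kilobase at 8 h and 2.91 at 24 h. In vehicle this median was 38.7 and 48.2. Vehicle changed more than FGF6 in Ifit2, which with FGF6 had 62.4, 54.6, and 63.5 CPM at 8 h and 53.3, 53.9, and 52.4 CPM at 24 h. In vehicle Ifit2 had 118, 162, and 169 CPM at 8 h and 266, 327, and 371 CPM at 24 h.

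How much of the 24 h change was present at 8 h ranged from 11.0% to 95.5% of the log2 fold change, with a median of 30.6% over the 40. Bst2 was latest (11.0%), with 486, 370.5, and 395 CPM at 8 h and 30.7, 30.2, and 48.6 CPM at 24 h with FGF6. Oas1a (14.1%), Rtp4 (16.9%), Irf9 (17.9%), and Ifi44 (18.3%) followed. Oasl1 (95.5%), Ifitm2 (64.9%), Irf1 (62.4%), Isg20 (60.9%), and Ifit1 (57.0%) were furthest along at 8 h. The measure divides by the 24 h change, so a small fall at 24 h raises it by construction. It also takes in any change of vehicle between 8 and 24 h.

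Some of these genes rose with time in vehicle. Between 4 and 24 h in vehicle, 17 of the 40 were higher and none was lower, against 30.9% of all genes higher and 30.0% lower. Between 8 and 24 h the numbers were 12 and none, against 25.5% and 23.7%. Between 4 and 8 h only Irf1 was higher and none was lower, against 21.2% and 21.7%, and by limma-voom 2 were higher. The share of members higher was thus below that of the whole table from 4 to 8 h and near it from 8 to 24 h. With DESeq2, 7 were higher from 8 to 24 h and 10 from 4 to 24 h. No member was lower at an unadjusted p under 0.05 in these comparisons, nor with DESeq2 or limma-voom. The Ifit genes and Rsad2 were among those that rose most. Ifit2 went from 116, 172, and 178 CPM at 4 h and 118, 162, and 169 CPM at 8 h to 266, 327, and 371 CPM at 24 h, a log2 fold change of 1.05 ± 0.13 (SE), adjusted p = 2.37e-07, against 4 h. Rsad2 rose by 0.87 ± 0.22 (SE), adjusted p = 0.00166, and Ifit1 by 0.86 ± 0.18 (SE), adjusted p = 0.000205, over the same interval. Against 8 h, Ifit2 rose by 1.10 ± 0.13 (SE), adjusted p = 2.2e-07, Ifit3 by 0.94 ± 0.22 (SE), adjusted p = 0.000895, and Ifit1 by 0.79 ± 0.18 (SE), adjusted p = 0.000759. With vehicle replicate 1 at 4 h left out, 10 were higher and 2 lower at 24 h than at 4 h, and without vehicle replicate 2 at 24 h 10 were higher. Without vehicle replicate 1 at 8 h, 6 were higher and 1 lower at 24 h than at 8 h, and 7 were higher at 8 h than at 4 h. Shares of all genes are given for the main fit alone.

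The genes that make and carry the interferon signal were examined next, from lists with 31 genes that could be tested. The ligands were barely detected. Of 10 interferon genes, Ifna1, Ifnk, Ifng, Ifnl2, and Ifnl3 had no count in any of the 18 libraries. Ifnb1 had 15, 12, and 11 counts in vehicle at 24 h and none with FGF6, which makes it at least 12.2-fold lower against a floor of 3 counts over the group. Ifna4 had 8, 7, and 9 counts in vehicle and none with FGF6 at 24 h, at least 7.73-fold lower. At 8 h Ifna4 had 13, 10, and 17 counts in vehicle and 0, 1, and 1 with FGF6, without overlap but on few counts. Ifnb1 at 8 h had 6, 10, and 12 counts in vehicle and 8, 2, and 4 with FGF6. At 4 h Ifnb1 had 2, 3, and 5 counts in vehicle and 9, 0, and 1 with FGF6. In the overlapping counts of Ifnb1 at 4 and 8 h no order among the libraries can be read.

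The receptor chains kept more of their vehicle level at 24 h than most of the 40 genes. Ifnar1 differed by -0.03 (adjusted p = 0.44), -0.30 (adjusted p = 8.42e-09), and -0.21 (adjusted p = 1.96e-06) at 4, 8, and 24 h on the log2 scale. Ifnar2 changed by -0.25 (adjusted p = 1.62e-05), -0.70 (adjusted p = 3.37e-13), and -1.03 (adjusted p = 2.2e-16). Ifnlr1, with 137 counts in all libraries together, differed by -1.20 (adjusted p = 0.0753), -2.59 (adjusted p = 0.000197), and -0.97 (adjusted p = 0.09). Of the interferon-gamma receptor, Ifngr1 was lower by 0.71 and Ifngr2 higher by 0.18 at 24 h. The kinases Jak1, Jak2, and Tyk2 changed by -0.23, -0.10, and -0.38 at 24 h, all past the threshold.

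Among 12 tested genes of nucleic acid sensing upstream of interferon, 3 were higher and 3 lower at 4 h, 2 higher and 6 lower at 8 h, and 2 higher and 8 lower at 24 h. Over all genes tested, the shares higher and lower were 28.6% and 34.2% at 4 h, 32.4% and 38.4% at 8 h, and 35.9% and 37.9% at 24 h. The largest falls at 24 h were in Zbp1 (log2 fold change -5.34, SE 0.39, adjusted p = 5.1e-12), a sensor of Z-form nucleic acid, Tlr3 (log2 fold change -3.03, SE 0.21, adjusted p = 1.28e-12), the receptor for double-stranded RNA, and Irf5 (log2 fold change -2.16, SE 0.14, adjusted p = 2.58e-13). The adaptors Ticam1 and Myd88 were lower by 1.36 and 1.22, respectively. Tmem173 (STING) and Mavs, the adaptors of DNA and RNA sensing, were higher by 0.42 and 0.31. Irf3 was not called (adjusted p = 0.996).

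Among 8 tested inhibitors of interferon signaling, 5 were higher and 1 lower at 4 h, 5 higher and 1 lower at 8 h, and 4 higher and 2 lower at 24 h. Of all genes, 28.6%, 32.4%, and 35.9% were higher and 34.2%, 38.4%, and 37.9% lower at the 3 times. Usp18, which also restrains this signaling, is counted among the 40 genes and not here, and changed by -5.22 at 24 h. Socs3, a feedback inhibitor of cytokine receptors, rose by 1.20 (adjusted p = 3.58e-16) at 4 h and 0.92 (adjusted p = 1.36e-13) at 24 h. Socs1, which blocks JAK kinases, rose by 0.52 (adjusted p = 1.77e-05) at 4 h and 0.66 (adjusted p = 7.18e-07) at 8 h, and differed by -0.06 ± 0.10 (SE), adjusted p = 0.612 at 24 h. Irf2, a repressor that competes with IRF1, rose by 0.60 (adjusted p = 1.83e-10) at 4 h and was lower by 0.97 (adjusted p = 1.02e-13) at 24 h. Its corepressor Irf2bp2 rose by 0.96 (adjusted p = 1.22e-12) at 4 h and 1.01 (adjusted p = 5.17e-13) at 8 h. Pias1, a SUMO ligase that restrains cytokine signaling, was lower at all 3 times, by 0.68, 0.89, and 0.54.

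Of 12 further genes of MHC class I and peptide loading, 6 were lower at 4 h, 11 at 8 h, and 10 at 24 h, with 1 higher at 24 h, against 34.2%, 38.4%, and 37.9% of all genes lower at the 3 times. At 24 h the transporter Tap2 changed by -3.14 (adjusted p = 3.07e-19), the MHC transactivator Nlrc5 by -2.77 (adjusted p = 8.37e-15), the loading chaperone Tapbp by -2.56 (adjusted p = 1.45e-18), and the heavy chains H2-K1 and H2-D1 by -2.54 and -2.08. H2-K1 and H2-D1 belong to a family of close copies whose reads may be shared. Among the general folding chaperones, Calr differed by -0.27, Canx by 0.09, and Pdia3 by -0.04, of which Pdia3 was not called.

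**Figure D5:**
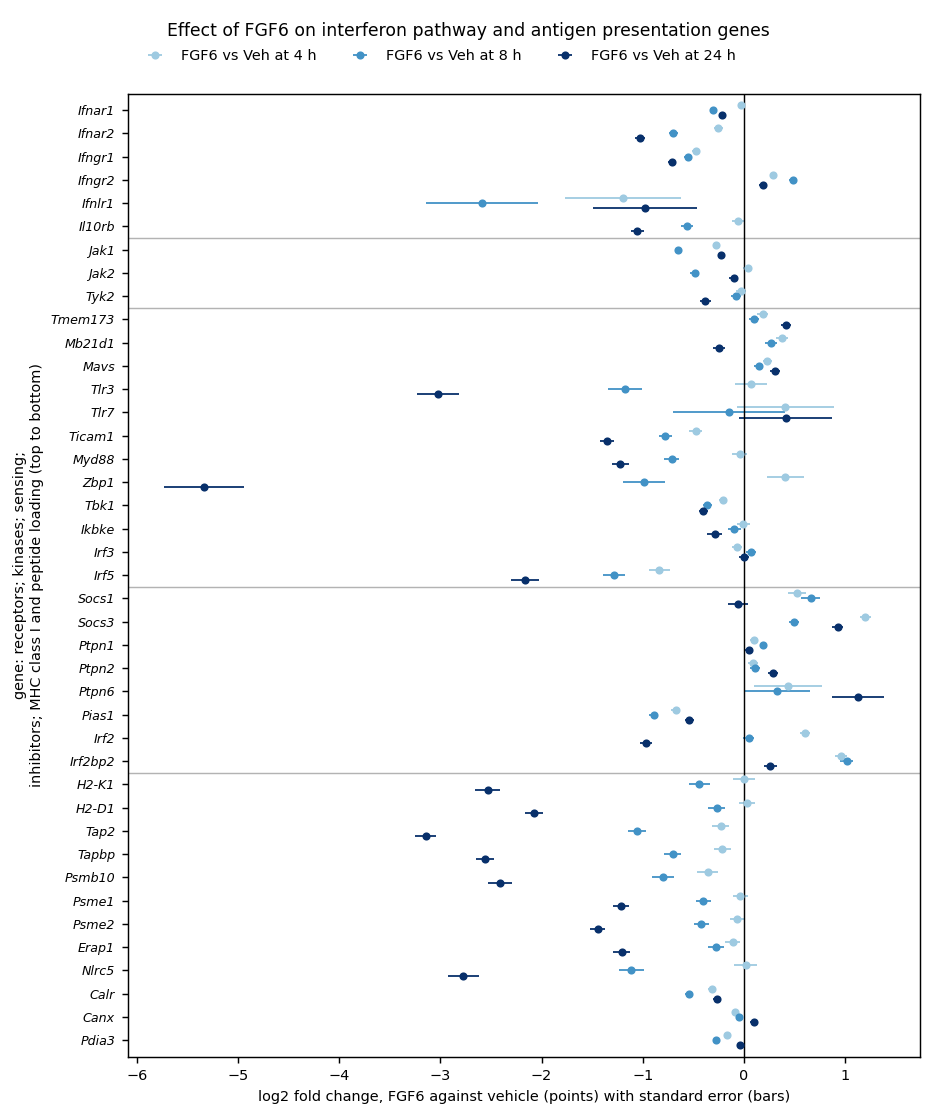
Log2 fold change of FGF6 against vehicle (horizontal axis, points) with its standard error (bars) at 4, 8, and 24 h for receptors, kinases, sensing genes, inhibitors, and MHC class I genes, in blocks from top to bottom. Zbp1 (-5.34), Tlr3 (-3.03), and Tap2 (-3.14) lie far to the left at 24 h, while the receptors lie between -1.05 and 0.18.

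Markers of preadipocytes, the cell type profiled here, and of other cell types were measured in the same libraries. Of 10 preadipocyte and stromal markers, 9 could be tested and Dlk1 had no count in any library. Their summed level was 9375 to 10020 CPM in vehicle and 2580 to 2689 CPM with FGF6 at 24 h, and at 4 h 6713 to 6980 and 4802 to 4998 CPM. Most of the vehicle sum at 24 h came from Col1a1 and Col1a2, with means of 3107 and 4193 CPM, against 443 and 573 CPM with FGF6. On the log2 scale at 24 h, Col1a1 changed by -2.81, Col1a2 by -2.87, Ly6a by -2.91, and Pdgfrb by -2.37. Pparg changed by -2.04, Pdgfra by -1.62, and Thy1 by -0.19, while Cd34 rose by 1.38 and Itgb1 by 0.32. Of 10 markers of macrophages and other leukocytes, 4 could be tested. The defining leukocyte gene Ptprc had 5 counts in all 18 libraries together, and Cd3e and Siglech had none. The summed level of the 10 was 15.02 to 16.14 CPM in vehicle and 44.4 to 47.0 CPM with FGF6 at 24 h. Among them Cd14 rose by 2.49, while Csf1r, Cd68, and Lyz2 changed by -1.77, -0.85, and -4.52 on the log2 scale. Of the 6 endothelial markers 3 could be tested, and the sum of the 6 was 1.66 to 2.14 CPM in vehicle and 4.55 to 6.16 CPM with FGF6 at 24 h. Of these Cdh5 rose by 5.84 on the log2 scale, from a mean of 0.0582 to 3.59 CPM, while Kdr (adjusted p = 0.281) and Vwf (adjusted p = 0.999) were not called, and Tek and Emcn had no count with FGF6 at 24 h. Of the 6 mature adipocyte markers, 4 could be tested, with a sum of 155.6 to 178.2 CPM in vehicle and 63.5 to 70.1 CPM with FGF6 at 24 h. Fabp4 alone made up most of this sum, with means of 160 CPM in vehicle and 66.9 CPM with FGF6. On the log2 scale Fabp4 changed by -1.26 and Cidec by -4.64. Adipoq and Plin1 had low means of 0.612 and 0.864 CPM in vehicle at 24 h and no count with FGF6. In bulk RNA, fewer cells that express these genes and less RNA per cell cannot be told apart, and the part of these marker changes in the falls of the 40 genes was not tested.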

How the data were processed

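RNA-seq libraries of total RNA from immortalized mouse brown preadipocytes were analysed (18 libraries). Per the labels and the study's methods, the authors aligned reads with STAR and counted them per gene with featureCounts of Subread on the mouse genome GRCm38, and deposited raw counts for 48023 genes. Tool versions, strand setting, and treatment of multi-mapping reads are not given in the sources used here, so counts of overlapping genes and close copies are uncertain. All count columns were mapped to samples by their names.

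Counts were analysed with edgeR 4.0.16 in R 4.3.3: genes passing filterByExpr over the 6 groups (15071), TMM factors, and the quasi-likelihood test fitted on all 18 libraries, with Benjamini-Hochberg adjustment over all genes tested and a threshold of 0.05. The quasi-likelihood test gives no standard error. The SE printed here is the absolute log2 fold change divided by the square root of the F statistic of the test. CPM are counts per 1000000 counts of the TMM-scaled library. In these libraries 3 counts correspond to 0.0905 to 0.126 CPM. An exact permutation test of 3 against 3 libraries cannot go below p = 0.1 and was not used. The alternatives were limma-voom (limma 3.58.1), DESeq2 1.42.0, other scalings and filters, the replicate number as a block, and leaving out each library. The scripts were tested on simulated data.

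The members and lists were chosen with earlier results of these data known. Full statistics were given, in each FGF6 comparison, to up to 4 called members without overlap with the largest change in each direction, in each vehicle comparison to up to 3, and always to Isg15, Irf1, Irf7, Irf9, Stat2, and B2m. Any gene of the pathway lists that was tested could be named. One item of the pathway lists is not reported here. Usp18, Oasl1, and Ifitm1 at 24 h were given statistics after their values were seen. Motifs were searched on both strands of the RefSeq promoter sequences. Over all genes tested, deviations of same-numbered vehicle and FGF6 libraries of a time had correlations between -0.028 and 0.049, so the numbers were not taken as pairs. This check covers neither libraries of different times nor the 40 genes alone. In vehicle, replicate 1 was the lowest library in 40, 38, and 31 of the 40 genes at 4, 8, and 24 h.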

Additional observations from a re-analysis of the deposited data

Results flagged for a closer look

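The effect of FGF6 differed between time points in most of the 40 genes, by the test of the difference of the log2 fold changes (quasi-likelihood test of edgeR, adjusted by Benjamini-Hochberg over all genes tested). It was more negative at 8 than at 4 h in 37 genes of the 40, against 15.1% of all genes tested, more negative at 24 than at 8 h in 39, against 22.5%, and more negative at 24 than at 4 h in 40, against 25.2%. Among the single genes, Bst2 had a log2 difference of -3.77 between 8 and 24 h. Irf9 differed by -2.18 over the same interval. Usp18 differed by -1.26 between 4 and 8 h.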

How the results depend on the processing

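The 4 h result and the drift in vehicle depended on the processing, while the counts at 8 and 24 h and of the time differences stayed within 1.5 times under the alternatives run. At 4 h, against 10 lower and 0 higher, DESeq2 called 5 lower, library sizes alone 17, no low-count filter 20 lower and 4 higher, and an FDR of 0.25 gave 17 lower and 1 higher; leaving out 1 library gave 3 to 20 lower and 0 to 1 higher. In vehicle from 4 to 8 h, against 1 higher and 0 lower, limma-voom, library sizes alone, upper-quartile factors, and a fit of only the groups compared gave 2 higher, no filter 11 higher and 3 lower, an FDR of 0.25 6 higher and 1 lower, and leaving out 1 library 1 to 7 higher and 0 to 2 lower. From 8 to 24 h, against 12 and 0, DESeq2 gave 7 higher, no filter 22 higher and 3 lower, library sizes alone, the replicate block, and the groups compared alone 1 lower each, an FDR of 0.25 2 lower, and leaving out 1 library 6 to 13 higher and 0 to 1 lower. From 4 to 24 h, against 17 and 0, DESeq2 gave 10 higher, no filter 27 higher and 2 lower, the groups compared alone 1 lower, an FDR of 0.25 1 lower, and leaving out 1 library 10 to 22 higher and 0 to 2 lower. The cause was not tested. Shares of all genes called under these alternatives are not given beside the member counts. The replicate block gave 10 lower at 4 h and 40 at 8 and 24 h; its only changes of more than 1.5 times were the 1 lower gene named above. Of 510 values of named genes under alternative settings, 492 kept their direction and side of the threshold, 9 lost the call, 4 gained it, and 5 reversed, all in genes not called at 4 h: with 1 library left out Isg15 lay between -0.26 and 0.099 (0.099 without vehicle replicate 3, 0.092 without FGF6 replicate 3) and B2m between -0.039 (without vehicle replicate 1) and 0.117, and B2m was -0.061 with library sizes alone and -0.016 with upper-quartile factors. Depth limits Mx1 and Ifitm1 with FGF6 at 24 h and the interferon genes, which had few counts.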

Other observations

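The ISRE-like motif was also counted in the promoters of genes outside the 40. Of 382 tested genes with the motif, 197 (51.6%) were lower with FGF6 at 24 h, against 4045 of 10269 genes without it (39.4%). A fall of at least 4 on the log2 scale was found in 37 of the 382 (9.69%) and in 169 of the 10269 (1.65%). These shares are descriptions without a test, since genes that share a pathway are not independent, and a match of letters is not a bound site.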
